A study of Drosophila melanogaster with 3 samples.

Results

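Of the 3747 reproducible peaks of the CG9609-GFP fusion protein in Drosophila melanogaster embryos, 322 lay on chromosomes other than X, more than 2000 bp from the transcription start site (TSS) of every protein-coding gene and outside every protein-coding gene body. They made up 8.59% of the set (95% Wilson interval 7.74 to 9.53%). These autosomal distal peaks were chosen by the position of the summit alone, in the dm6 genome and the Ensembl annotation, and neither the signal nor the sequence under the peak entered the choice. The data come from chromatin immunoprecipitation followed by sequencing (ChIP-seq) of whole embryos aged 0 to 24 h, of mixed sex, from a transgenic line that stably carries CG9609 joined at its C-terminal end to green fluorescent protein (GFP). An antibody against GFP was used on chromatin sheared by sonication, with a labelled size range of 200 to 800. The samples form 1 group of 3 biological replicates from 1 transgenic line, and the embryos are a mixture of all cell types and ages. No list from untagged embryos was analysed here, so the values are compared between places in the genome and between replicates.

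DNA-binding proteins reach genes from promoters, next to the TSS, and from distal elements such as enhancers, silencers and insulators, which can act over long stretches of DNA. In the fly embryo, distal elements are known for the patterned expression of developmental regulators, and these genes often have wide gene-free neighbourhoods that hold several such elements. A ChIP-seq peak marks where DNA was recovered with the tagged protein, directly bound or through a partner. Its summit is meant to mark the base where the recovered fragments pile up highest. When a protein has its own recognition sequence, that sequence tends to lie at a fixed place relative to the summit.

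A sequence feature frequent at these summits was a spaced CAGTG element: TTT, any 4 bases, then CAGTG, searched on both strands. It was chosen after the data were seen. Shown first are stretches that hold the element in pairs, from 6 peaks that lie next to known developmental regulators, named by the nearest coding gene on each side. The slp1 and slp2 genes encode forkhead-domain segmentation regulators, and ems a homeodomain protein of head patterning. Doc1 and Doc2 encode T-box proteins of the dorsal ectoderm and heart, and sob and odd zinc finger proteins of the odd-skipped family. Dr encodes a homeodomain protein of the nerve cord and muscle, and H15 and mid T-box proteins of the heart. Each is read from the dm6 sequence, and capitals mark the TTT and CAGTG of each element, which read AAA and CACTG where the element lies on the minus strand. For contrast, the last line gives the sequence 100 bp to each side of the summit of the mtSSB/tara peak, the second strongest of the distal peaks, which holds no element.
slp1/slp2 peak, chr2L:3832422-3832598, plus strand: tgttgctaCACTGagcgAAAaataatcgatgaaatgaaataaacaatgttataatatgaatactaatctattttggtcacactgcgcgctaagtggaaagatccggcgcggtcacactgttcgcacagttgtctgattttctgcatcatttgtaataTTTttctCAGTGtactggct
ems/Art9 peak, chr3R:13914815-13915009, plus strand: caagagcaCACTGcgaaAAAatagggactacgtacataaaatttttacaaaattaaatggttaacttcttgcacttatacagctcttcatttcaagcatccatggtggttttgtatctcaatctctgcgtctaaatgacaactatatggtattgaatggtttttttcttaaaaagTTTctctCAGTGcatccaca
Doc2/Doc1 peak, chr3L:9025797-9025988, plus strand: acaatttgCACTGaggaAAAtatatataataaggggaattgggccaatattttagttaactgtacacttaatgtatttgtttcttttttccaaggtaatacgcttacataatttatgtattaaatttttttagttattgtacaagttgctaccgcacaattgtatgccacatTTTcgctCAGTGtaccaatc
sob/odd peak, chr2L:3594123-3594271, plus strand: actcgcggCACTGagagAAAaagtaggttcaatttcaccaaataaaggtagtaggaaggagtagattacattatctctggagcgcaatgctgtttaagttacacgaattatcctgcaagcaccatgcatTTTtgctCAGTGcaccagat
Dr/CG7567 peak, chr3R:29567098-29567279, plus strand: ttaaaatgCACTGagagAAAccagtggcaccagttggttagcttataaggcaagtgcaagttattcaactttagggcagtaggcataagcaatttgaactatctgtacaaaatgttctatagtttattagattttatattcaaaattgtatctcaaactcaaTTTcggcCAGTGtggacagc
H15/mid peak, chr2L:5425488-5425641, plus strand: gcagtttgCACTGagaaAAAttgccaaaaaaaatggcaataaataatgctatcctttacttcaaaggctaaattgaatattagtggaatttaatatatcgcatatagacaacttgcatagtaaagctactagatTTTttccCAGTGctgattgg
mtSSB/tara peak, chr3R:16222386-16222586, plus strand: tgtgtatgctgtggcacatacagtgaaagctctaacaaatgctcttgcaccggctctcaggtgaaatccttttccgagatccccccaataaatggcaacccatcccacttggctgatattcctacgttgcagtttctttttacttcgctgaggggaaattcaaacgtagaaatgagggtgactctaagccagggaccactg

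In each of the 6 paired stretches the left element lies on the minus strand and the right element on the plus strand, so that CAGTG faces away from the summit on both sides. The capitals in the mtSSB/tara line are absent because no copy was found there. An element that points away from the summit is called outward below, one that points towards it inward, and an outward pair is 1 outward element on each side.

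The element was found within 150 bp of the summit in 103 of the 322 autosomal distal peaks, or 32.0% (95% Wilson interval 27.1 to 37.3%), where 15.4% of all reproducible peaks held it. In windows of the same 301 bp centred 500 bp to each side, the mean share was 3.11%. Windows of that size laid over all bases that meet the rule for these peaks held it in 3141 of 103310 cases, or 3.04%. Among other places, autosomal distal peaks inside coding genes held it in 27.2% of 497, autosomal peaks 501 to 2000 bp from a TSS in 18.9% of 530, and autosomal promoter peaks, within 500 bp of a TSS, in 7.31% of 1682. On the X chromosome the share was 22.0% of 378 peaks outside promoters, with a flank share of 5.42%, and 9.76% of 338 promoter peaks.

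The share was also taken with the summits that each replicate placed. With the replicate's own summits, for those of the 322 peaks that its whole list holds within 100 bp, the element was present at 30.4% in replicate 1, 32.3% in replicate 2 and 32.3% in replicate 3, a mean of 31.6% ± 1.10 (SD, n = 3), against 2.69% ± 0.240 in the flanks. The replicates read the same genome sequence at nearly the same places, so their closeness is in large part built in; their spread shows only how much the placing of the summit matters. The difference was 28.9 ± 1.34 percentage points (SD, n = 3), with p = 0.25 in an exact two-sided sign-flip permutation test over the replicates. That is the smallest p that 3 replicates allow, so no comparison here can reach 0.05; of the 9 such tests made, 7 gave this value, which becomes 0.321 after Benjamini-Hochberg adjustment.

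Against autosomal promoter peaks the share was higher in 3 of 3 replicates, by 23.2 to 25.1 percentage points (mean 24.4 ± 1.10, SD, n = 3, exact permutation p = 0.25). Against distal peaks inside coding genes it was higher by 2.73, 4.39 and 4.93 points (mean 4.02 ± 1.14, SD, n = 3, exact permutation p = 0.25). The second difference is small, and with CAGTG counted alone, without the TTT, its mean turned to -3.04 points. The element and its window were chosen after these sequences were seen, so neither comparison is independent of that choice.

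**Figure D1:**
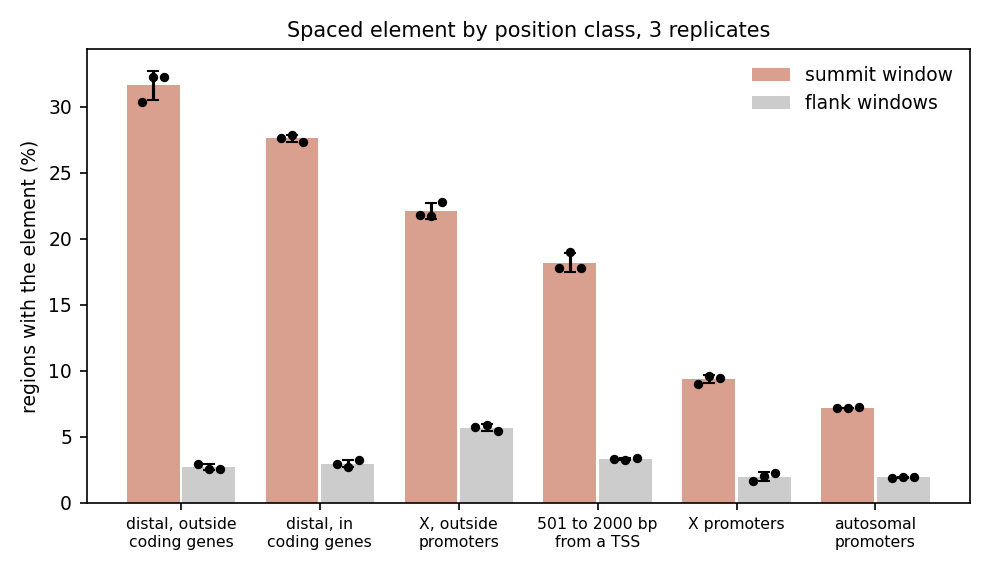
Percent of peaks with the spaced element within 150 bp of the replicate's own summit (dark bars) and in windows 500 bp away (light bars), by position class; bars are means, error bars SD and points the 3 replicates. The autosomal distal peaks outside coding genes stand highest, at 31.6%, against 2.69% in their flanks.

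Direction followed position closely. Of the 131 elements within 150 bp of these summits, which lie at 130 distinct sites since neighbouring peaks share some sequence, 128 pointed outward and 3 inward, so 97.7% were outward. The outward share was 91.2% in distal peaks inside coding genes (146 against 14), 90.7% at 501 to 2000 bp from a TSS, 94.4% in X peaks outside promoters and 71.9% in autosomal promoter peaks (97 against 38). The replicates' own summits gave 107 outward and 5 inward elements in replicate 1, 122 and 7 in replicate 2, and 120 and 7 in replicate 3. Per 100 peaks, outward exceeded inward elements by 33.7, 36.4 and 36.5 (mean 35.5 ± 1.59, SD, n = 3, exact permutation p = 0.25). The replicates read nearly the same copies, and the element was chosen after these sequences were seen. Their common direction was thus largely built in, and the test adds no independent support.

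Outward elements also kept a distance from the summit. Their centres lay at a median of 72.5 bp (interquartile range 49.5 to 96.2 bp), and 107 of 128 (83.6%) lay between 20 and 120 bp away. Few elements therefore sat under the summit itself.

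**Figure D2:**
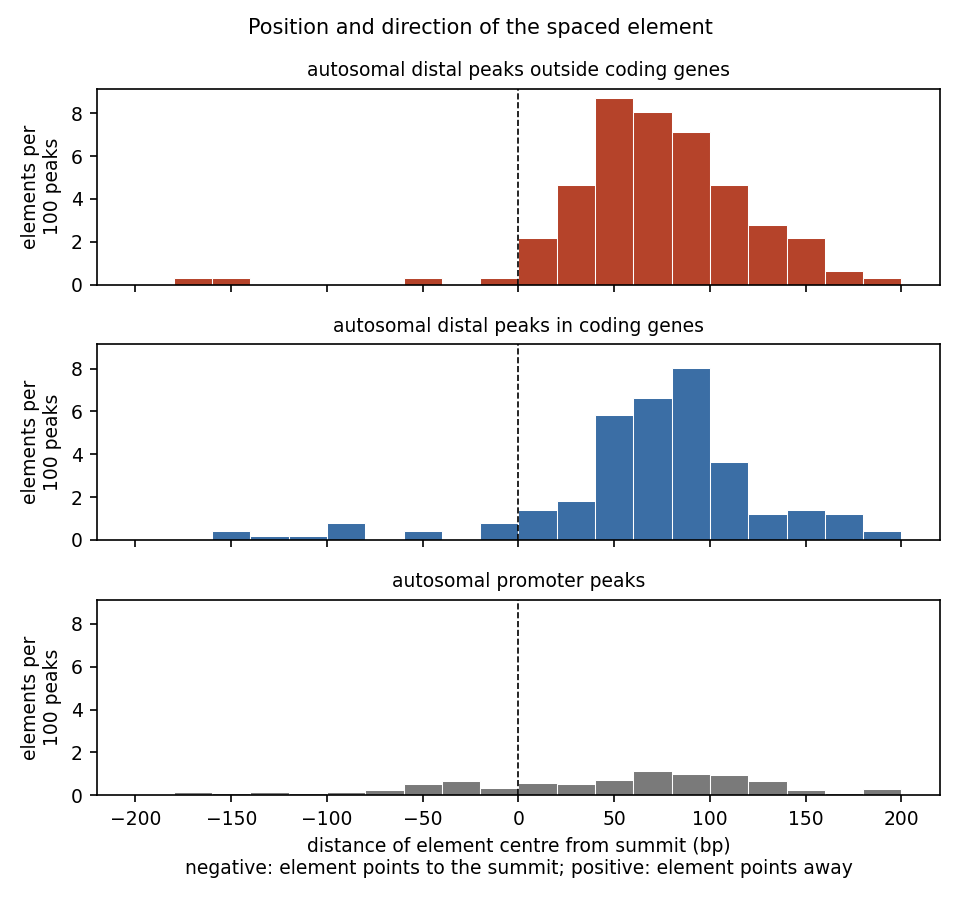
Spaced elements per 100 peaks by distance of the element's centre from the summit, in 20-bp bins, with elements that point to the summit at negative and those that point away at positive distances, for 3 position classes. In the autosomal distal peaks nearly all lie on the positive side, with 107 of the 128 outward elements between 20 and 120 bp.

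The bases at the open positions were uneven in the 128 outward elements. Of the 4 spacer bases, which are positions 4 to 7 of the element, position 4 was C in 60.9% and T in 35.9%, position 5 was T in 78.9%, and position 6 was C in 63.3% and T in 29.7%. The last spacer base, position 7, was T in 49.2% and G in 23.4%. The first base after CAGTG, position 13, was C in 52.3% and T in 44.5%, and the next, position 14, was A in 74.2%. The commonest reading is thus a pyrimidine stretch, CAGTG, then CA or TA.

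Shorter words were counted by side as well. CAGTG is part of every spaced element, of which 128 were outward and 3 inward. The counts below overlap with those, and copies outside the elements were not counted apart. CAGTG alone occurred 238 times outward and 125 times inward within 150 bp of these summits, and 722 times outward and 829 inward in autosomal promoter peaks. Over all reproducible peaks it occurred 1998 times outward and 1900 inward. Longer words that hold it were more one-sided in the distal peaks, with CAGTGCA 79 times outward and 8 inward. CAGTGTA was outward 60 times and inward 2 times. Over all reproducible peaks the outward and inward counts were 363 and 129 for CAGTGCA, and 346 and 59 for CAGTGTA. In distal peaks inside coding genes they were 76 and 18, and 77 and 8, so this side is not particular to the peaks outside coding genes. The word ACAGTGG, which shares the CAGTG core, went the other way, with 9 outward and 39 inward copies, in 12.1% of peaks against 3.88% of flanks. That is near the 12.6% of all reproducible peaks, in which 110 copies were outward and 454 inward, and inward copies were the more numerous in every position class. CAGTGTTG was rare, in 0.932% of these peaks against 9.45% of autosomal promoter peaks and 5.68% of all reproducible peaks. Copies of one word thus lay on different sides according to the bases next to CAGTG.

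An outward pair was present in 26 of the 322 peaks, or 8.07% (95% Wilson interval 5.57 to 11.6%), where the share over all reproducible peaks was 2.72%. It was 4.63% in distal peaks inside coding genes, 6.61% in X peaks outside promoters and 0.654% in autosomal promoter peaks. Of the 27 distal peaks with at least 2 elements, 26 were paired outward, and the exception, between scyl and Dyro, held both on 1 strand. Centres of paired elements were 121 to 217 bp apart, with a median of 155 bp (interquartile range 137 to 168.5 bp).

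The replicates placed their summits between the paired elements in most cases. This was largely built in: the pair was defined around the reproducible summit, and a replicate's summit counted only within 100 bp of it. Replicate 1 listed 23 of the 26 peaks and had its summit between the elements in 21, replicate 2 listed 26 with 24 between, and replicate 3 listed 25 with 24 between. The paired peaks were of ordinary strength: their median signal was 147, and 15 of 26 (57.7%) were found among the strongest regions of all 3 replicates. Next to 1 element on 1 side only, a bare outward CAGTG on the other side was found in 15 of 74 peaks (20.3%) and an inward one in 10 (13.5%).

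Some intervals between coding genes held 2 paired peaks. The strongest pair, at rank 192 in the set, lay 6860 bp from the slp1 TSS and 4305 bp from that of slp2, with a signal of 440 and ranks of 259, 172 and 228 in replicates 1, 2 and 3. The interval between Doc2 and Doc1 held pairs at ranks 1474 and 1593, and that between sob and odd at ranks 1785 and 2999. Drm, of the same gene family as odd, was the nearest coding gene on one side of paired peaks at ranks 1645 and 3621. The others with regulators beside them were near ems (rank 1119), aop, an ETS-domain repressor (rank 1279), sens-2 (rank 1659), Dr (rank 1920), H15 and mid (rank 2173) and Hr38, a nuclear receptor (rank 3653). These genes were picked from the pairs for their known roles after their values were seen. Other pairs lay by genes such as CG6168 and CG6163 (rank 557).

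The element was also looked for in regions outside the reproducible set. These come from the same 3 replicates and can be the same places in more than 1 of them, so they are no independent check. Among the strongest 3747 regions of each replicate, those that met the same position rule and lay over 500 bp from any reproducible summit numbered 94, 62 and 45. The element was within 150 bp in 14 (14.9%), 26 (41.9%) and 15 (33.3%) of them, against 3.72%, 0.806% and 3.33% in their flanks. Outward and inward elements numbered 11 and 5, 26 and 3, and 16 and 2 in replicates 1, 2 and 3. Per 100 regions, outward exceeded inward by 6.38, 37.1 and 31.1 (mean 24.9 ± 16.3, SD, n = 3, exact permutation p = 0.25), the same direction in 3 of 3, with replicate 1 far below the others. In whole replicate lists, which include background regions, the shares were 6.10, 9.93 and 11.1%, against 4.57, 3.68 and 3.86% in flanks. Outward and inward elements there numbered 152 and 123, 272 and 155, and 282 and 100, and the excess per 100 regions was 0.707, 3.00 and 5.96, a mean of 3.22 where the strongest regions gave 24.9.

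Most copies of the element in the bases open to these peaks lay away from them. The bases that meet the position rule held 3286 elements, of which 3.90% lay within 150 bp of one of the 322 summits, and 16.2% lay that close to a summit of the pooled list. Outward pairs with centres 100 to 220 bp apart numbered 180. Of these, 28 (15.6%) lay at the 322 peaks, 45.0% at the pooled list, and 32.2, 42.2 and 41.1% at the lists of replicates 1, 2 and 3. Windows within 150 bp of the pooled summits covered 3.47% of the same bases. Inward pairs of that spacing numbered 8, with 0 at the 322 peaks and 1 at the pooled list. The spacing range was taken from the observed pairs.

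The element was present at all levels of signal. It was found in 35 of 108 (32.4%), 28 of 107 (26.2%) and 40 of 107 (37.4%) of the peaks in the strongest, middle and weakest of 3 equal classes by signal. Median signal was 126 with the element and 130 without, and 53 (51.5%) of the peaks with it and 116 (53.0%) of the 219 without it were found among the strongest regions of all 3 replicates. By chromosome arm, it was present in 36 of 100 peaks on 2L, 36 of 101 on 3L and 21 of 63 on 3R. It was present in 10 of 55 on 2R, or 18.2%, and in 0 of 3 on chromosome 4.

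The leading word of promoter peaks was scarce, while some A- and T-rich words of promoter peaks were not. The leading 8-base word of autosomal promoter peaks, ATCGATAG, overlaps TATCGATA, the DNA replication-related element (DRE) of housekeeping promoters. It lay within 50 bp of the summit in 97 promoter peaks and in 1 of the 322 distal peaks (0.311%), where 3.31% of all reproducible peaks held it. At the replicates' own summits the distal share was 0.660, 0.316 and 0.323%, against 5.52, 5.68 and 5.32% in promoter peaks, which chose the word. The difference was -5.07 ± 0.263 points (SD, n = 3, exact permutation p = 0.25). Any of the 10 leading promoter words was found in 10.9% of the distal peaks (5.90% in flanks), in 26.3% of promoter peaks and in 19.2% of all reproducible peaks. Of these words, ATTTAAAA was in 5.59% of the distal peaks and 5.59% of promoter peaks, and TTTAAAAA in 3.73% and 5.71%.

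The distal peak with the leading word lay between drl, a receptor kinase gene of axon guidance, and CG31797, with a signal of 116. The sequence 50 bp to each side of its summit follows, since it is the single case, with the word in capitals as it reads on the plus strand.
drl/CG31797 peak, chr2L:19233459-19233559, plus strand: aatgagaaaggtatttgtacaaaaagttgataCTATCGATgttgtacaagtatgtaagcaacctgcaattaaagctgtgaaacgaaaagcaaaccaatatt

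Of 16 known motifs searched within 50 bp of the summit, 6 were more frequent there than in windows 300 bp away. TATAAA, the TATA box sequence, was in 49 peaks (15.2%, flanks 9.32%, all reproducible peaks 15.1%), and GCCATNTT, bound by the Polycomb-group protein Pho, in 8 (2.48%, flanks 0.776%, all reproducible peaks 2.03%). Both shares are near those of the whole set. The other 4 were TATCGATA, core promoter motif 7 (CANCNCTA), TGCATAC of Su(Hw) and AGATAAG of GATA factors, with 1, 7, 5 and 5 peaks. Their shares were 0.311, 2.17, 1.55 and 1.55%, against 0, 1.55, 0.776 and 1.40% in flanks. Over all reproducible peaks the shares were 2.99, 7.37, 1.92 and 1.52%. TATCGATA and core promoter motif 7 were thus rarer here than in the whole set, and the counts above flanks are small. The rest were as frequent or less frequent at summits, among them CACACACA (1.24%, flanks 3.57%, all reproducible peaks 1.17%) and the E-box CAGCTG (1.55%, flanks 3.26%, all reproducible peaks 4.88%).

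Base composition had a narrow trough at the summit. The median GC content within 100 bp of the summit was 36.8% (interquartile range 33.3 to 40.8%), against 45.8% in the flanks and 40.9% over all bases that meet the rule. Averaged in 21-bp windows, GC was 35.3% at the summit, 45.2% at 300 bp to the left and 45.0% at 300 bp to the right. Promoter peaks (median 37.8%) and distal peaks inside coding genes (35.8%) had similar medians. The mean share of bases marked as repeats was 16.7%, against 29.6% over all bases that meet the rule. The spaced CAGTG element itself is rich in T, and its part in the trough was not tested.

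**Figure D3:**
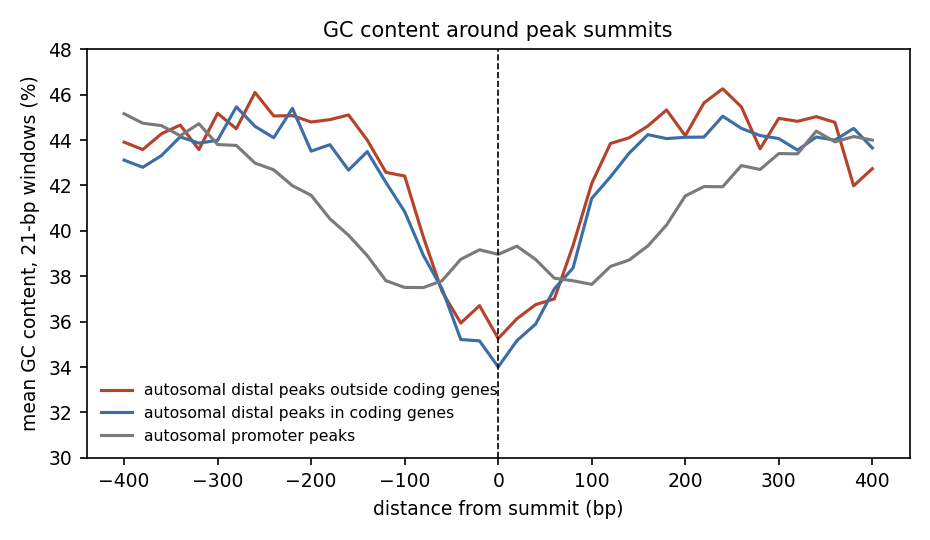
Mean GC content (percent, 21-bp windows) by distance from the summit (bp) for 3 position classes of autosomal peaks. In the distal peaks outside coding genes it falls from 45.2% at 300 bp to the left to 35.3% at the summit, while promoter peaks have a small rise at the summit within a broader trough.

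The peaks were fewer than the space open to them. Bases that meet the rule make up 22.7% of the sequenced genome, so the share of peaks there was 0.379 times the share of bases. Among the strongest regions of the replicates, 8.81, 8.94 and 8.38% met the rule (mean 8.71% ± 0.293, SD, n = 3), and among the weakest, equally many, 17.6, 17.6 and 13.0% (mean 16.1% ± 2.66, SD, n = 3). Per megabase open to them, there were 16.0 peaks on 2L, 12.0 on 3L, 9.09 on 3R and 8.07 on 2R. Chromosome 4 had 3 peaks in all and Y had 0.

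Distances to genes were shorter than those of the open bases, again with no allowance for where reads can be placed. The median distance to the closest coding TSS was 7268.5 bp (interquartile range 3944.5 to 12741.8 bp), whereas the bases that meet the rule lay at a median of 12215 bp. Over 10000 bp lay 110 peaks (34.2%), against 56.2% of the bases. The closest TSS belonged to a gene that the summit lay upstream of in 170 cases (52.8%) and downstream of in 152. At the limit of the rule, the 3 nearest inside were at 2010 bp from lmd, 2015 bp from Act87E and 2027 bp from Hacd1, with signals of 177, 144 and 104. The 3 just outside were at 1996 bp from CG12290, 1983 bp from sktl and 1980 bp from CG33467, with signals of 212, 112 and 94.7.

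The authors' signal, whose scale is not given in the sources used here, ranged from 90.1 to 1503 in these peaks, with a median of 130 (95% interval 124 to 142). The median over all reproducible peaks was 144, over promoter peaks 150 and over distal peaks inside coding genes 133. The median rank was 2199 of 3747, and 6 of the 322 (1.86%) were among the strongest 100 of the set, against 2.67% of all reproducible peaks.

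Most were found again in single replicates. A peak was counted as found when a replicate had a summit within 100 bp among its strongest 3747 regions. The reproducible set was itself derived from these 3 replicates, so finding its peaks again in them is largely built in. This held for 228 (70.8%), 260 (80.7%) and 258 (80.1%) of the 322 in replicates 1, 2 and 3, so replicate 1 was the lowest. Over all reproducible peaks the shares were similar, at 72.8, 81.3 and 82.7%. All 3 replicates held 169, or 52.5% (95% Wilson interval 47.0 to 57.9%), against 55.4% of all reproducible peaks, a share near the background. Exactly 2 replicates held 91, exactly 1 held 57, and 5 were among the strongest of none. In whole replicate lists 289 (89.8%) were found in all 3, against 87.2% of all reproducible peaks, again near the background.

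Compared with autosomal promoter peaks, the share found was lower by 4.46, 1.95 and 3.35 points (difference -3.25 ± 1.26, SD, n = 3, exact permutation p = 0.25), and with whole lists the difference turned to 0.807 points. Among peaks with signal at or under the median of all reproducible peaks it was -0.485 points (exact permutation p = 0.75). Against distal peaks inside coding genes the differences were 4.21, 4.29 and -2.57 points (mean 1.97 ± 3.94, SD, n = 3, exact permutation p = 0.5), so the replicates disagreed in direction.

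**Figure D4:**
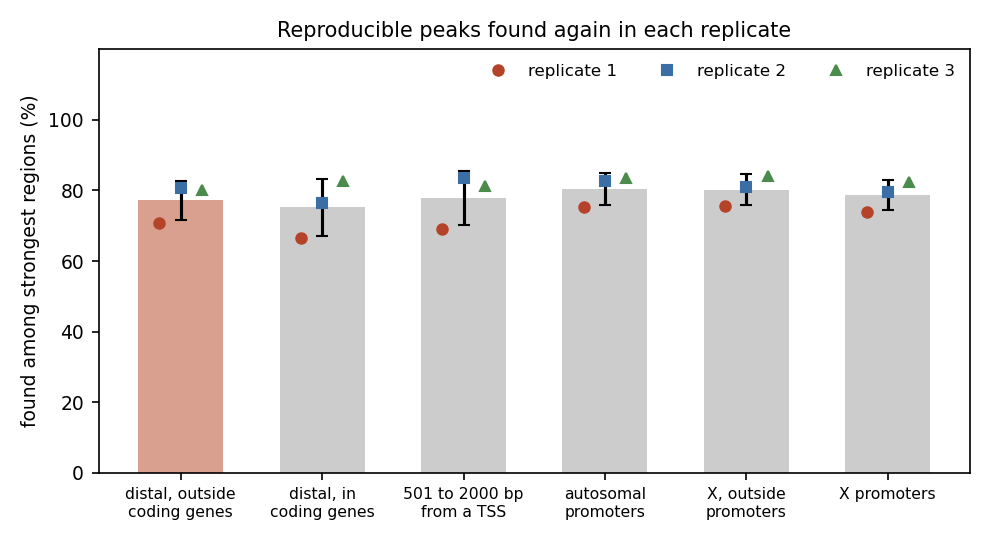
Percent of reproducible peaks found among the strongest regions of the replicates, by position class; bars are means, error bars SD and points the 3 replicates. The autosomal distal peaks stand at 70.8, 80.7 and 80.1%, and replicate 1 is the lowest in every class.

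The 25 strongest distal peaks were taken by signal from a set derived from these replicates. High ranks in each replicate were thus largely built in. Each replicate held all 25 among its strongest regions, with set ranks from 13 to 340 and no replicate rank beyond 652. The first, at 2R 13035176-13035508, lay between Su(z)2, a Polycomb-group gene, and CG13323, with a signal of 1503 and replicate ranks of 10, 13 and 11, and it held the element. The peak between mtSSB and tara, a cell-cycle and sleep regulator, had a signal of 1077 and ranks of 17, 34 and 39. Then came those between blw, an ATP synthase subunit gene, and CycB, the mitotic cyclin B gene (985), and between Cyt-c1L and eEF1gamma, a translation elongation factor gene (867). All 4 ranked within the first 53 regions of every replicate. The peak between NimC3 and hll had a signal of 837 and lay in lncRNA:CR31840, and that between CG43131 and RabGGTa had 630 and the element.

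The other 19 had signals from 515 to 358. Those with a flanking gene of known role, picked after their values were seen and compared with no other peaks, lay between betaTub60D and slbo, a C/EBP transcription factor gene (511 and 444, both in lncRNA:CR44810), RFeSP and chinmo, a BTB zinc finger gene (456), Glut3 and abd-A, a Hox gene (443), slp1 and slp2 (440), tsh and CG11629 (418, in lncRNA:CR44919 and lncRNA:CR44917), Ids and sty, an inhibitor of receptor tyrosine kinase signalling (416), mid and CG14020 (374), noc and CG33648 (365), CG7484 and Crtc (362), and Alp6 and Not1, the scaffold of the deadenylase complex (358). Further peaks among the 19 were between CG43389 and ckd (515, in lncRNA:CR43626), CG6739 and Slob (504), COX7AL2 and CG31668 (463), CG43401 and CG43402 (420), CG44362 and CG7560 (408 and 387, the second in lncRNA:CR44363), and CG13970 and CG10651 (384). The element was present in 6 of the 25. Those at slp1 and slp2, CG43401 and CG43402, mid and noc were 4 of them.

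**Figure D5:**
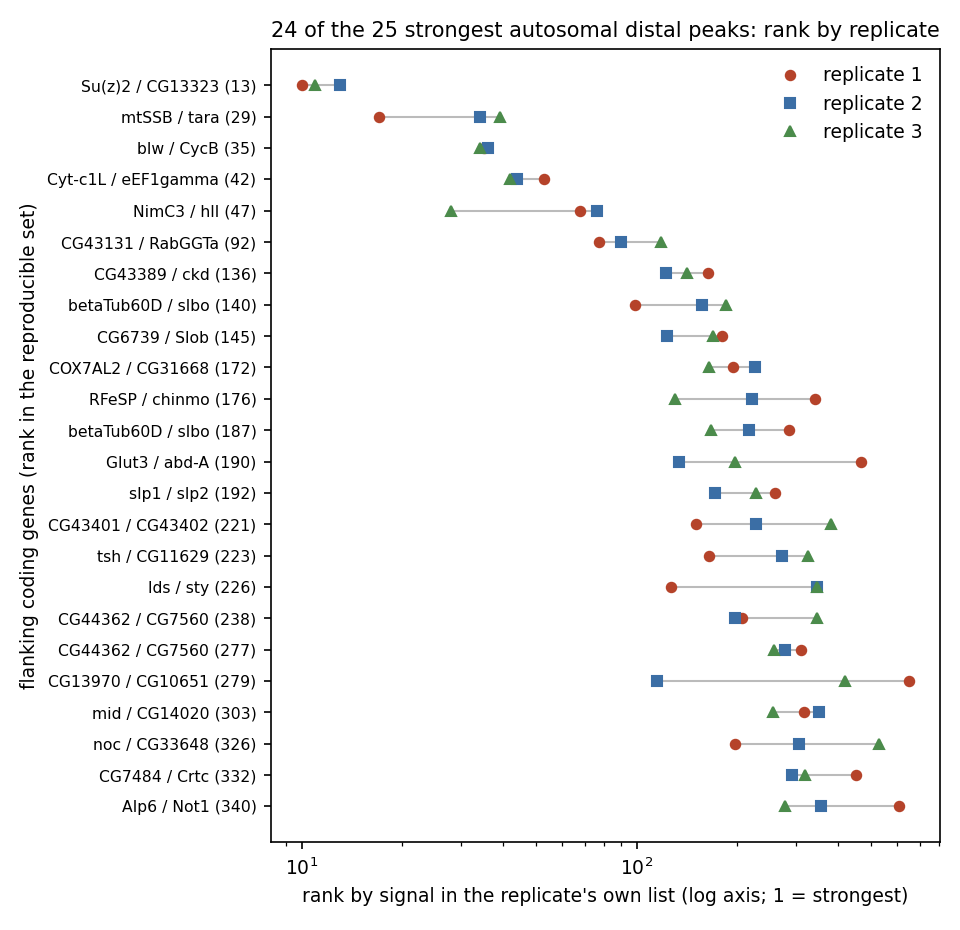
Rank by signal in each of the 3 replicates, on a log axis, for 24 of the 25 strongest autosomal distal peaks, named by the coding genes on both sides. No rank is beyond 652, and the Su(z)2/CG13323 peak has ranks 10, 13 and 11.

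At the other end, the 5 weakest had signals from 91.0 to 90.1 and lay between CG14342 and CG42329, Alp13 and Fmr1, CG11550 and CG42693, CG13251 and kni, and CG16964 and CG16965. The last held an outward pair. The first had no summit within 100 bp in replicate 1, and the second ranked 25485, 10841 and 3659. The farthest from a coding TSS was at 59534 bp, between Cyp12e1 and hth, a Hox cofactor gene, with replicate ranks of 8686, 2077 and 1924. The next lay between Tmtc2 and CG4375 (51536 bp), the apoptosis genes grim and rpr (44450 bp), NijA and CG43245 (36670 bp, with an outward pair) and drl and CG31797 (35714 bp). Ranks of these weak and far peaks differed widely between replicates. On chromosome 4 the 3 peaks lay between dati and lgs (signal 352), Asator and zfh2 (199) and fuss and toy (155).

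Non-coding genes held the summits of 43 of the peaks, or 13.4% (95% Wilson interval 10.1 to 17.5%), of which 41 were in lncRNA genes, 1 in an snRNA gene and 1 in a pseudogene. Such genes cover 5.42% of the bases that meet the rule, and the summits of 4.91% of all reproducible peaks lay in one. The latter share takes in peaks at promoters and inside coding genes, where the distal peaks cannot lie by rule. Annotated transposable elements held 0 of 322 summits, which allows a share of up to 0.932% (3 counts of 322), against 8 of all 3747 reproducible peaks (0.214%), a similarly low share. They cover 3422815 of the 31097703 bases that meet the rule. The weakest regions of the replicates that meet the rule had 1.37, 2.42 and 1.44% of their summits there. How reads that map to several places were treated is not known from these sources.

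Small RNA genes were within 500 bp of 4 peaks. A peak with a signal of 166 and ranks of 2768, 1214 and 1533 lay between snRNA:U6:96Ab and snRNA:U6:96Ac, genes of the spliceosomal U6 RNA, 108 bp upstream of the second. One with a signal of 121 lay inside snRNA:U1:95Ca, for the U1 RNA. The third, by tRNA:Glu-TTC-1-5 and snoRNA:185 (signal 119), and the fourth, by snoRNA:Or-CD4 (91.9), had no summit within 100 bp in the list of replicate 1. U1, U6 and tRNA genes have near-identical copies, so reads there may not be placed with certainty.

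Some of the peaks had neighbours. Another reproducible summit lay within 5000 bp of 131 (40.7%, 95% Wilson interval 35.5 to 46.1%), against 48.5% of all reproducible peaks, 45.1% of distal peaks inside coding genes and 47.1% of promoter peaks. They fell into 208 intervals between neighbouring coding genes, of which 149 held 1 each. In 13 intervals with 4 or more lay 68 peaks (21.1%). The interval between RFeSP and chinmo held 7, and those between CG6168 and CG6163 and between CG44362 and CG7560 held 6 each.

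Lists of coding genes were compared by the nearest coding TSS on either side. Shares over all reproducible peaks were not taken for these lists, so a difference from the whole set was not tested. Distal peaks inside coding genes are an unlike comparison, since the nearest TSS there can be that of the gene that holds the peak. Segmentation and homeotic genes flanked 17 peaks (5.28%), against 2.01% of distal peaks inside coding genes and 2.11% of the bases that meet the rule. Among the 12 genes so flanked were abd-A, Ubx, Abd-B and Antp of the Hox clusters, tsh, slp1 and slp2, wg, the Wnt ligand, ptc, the Hedgehog receptor, and the gap gene kni, and 7 of the 17 peaks held the element. Neurogenic and proneural genes flanked 14 (4.35%), against 0.201% of distal peaks inside coding genes and 1.89% of the bases. Of the 14, 7 were the cluster by chinmo and 3 held the element. Mesoderm and muscle genes flanked 7 (2.17%), against 1.21% of distal peaks inside coding genes and 1.21% of the bases. All 7 lay by Doc1, Doc2, H15 or mid, and 6 of the 7 held the element. Ecdysone response genes flanked 1, Hr38, and cytoplasmic ribosomal protein genes 1, RpLP0, which is 0.311% each, with 0.283% and 1.72% of the bases. For distal peaks inside coding genes the shares were 3.62% and 0.402%, so ecdysone response genes flanked a larger share of those. Insulator protein genes flanked 0, with 0.00900% of the bases. By the nearest TSS alone, 9 peaks belonged to segmentation and homeotic genes.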

How the data were processed

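The 3 samples are biological replicates of 1 group; nothing else in the labels says how separate they are. The deposited dm6 narrowPeak lists hold a signal value for each region, made by the authors; the labels and headers state neither its scale nor the aligner, the peak caller or the read depth, so depth is unknown. Signal was used only within a list, as values or ranks. Used were the reproducible set, the pooled list and the replicate lists of peaks with background regions; dm3 lists were left out. No 2 replicates shared an identical region.

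Summits (start plus deposited offset), distances, words and GC content were computed with Python 3.11.15, numpy 2.4.6, scipy 1.17.1 and matplotlib 3.10.9, from the dm6 sequence and Ensembl 115 (BDGP 6.54) with 13968 protein-coding genes. Coordinates count from 1. Peaks, gene lists, motifs and tests were chosen with earlier results of these data known, and the spaced CAGTG element, its 150 bp window and the pair spacing after the sequences were seen. Promoter words were chosen in promoter peaks only. Replicates are the unit of every test; 95% Wilson intervals cover counting error only. Steps were tested on simulated data. Named peaks are the 25 strongest, the 5 strongest in lncRNA genes, those by small RNA genes, the 5 farthest, the 5 weakest, those at the distance limit and those on chromosome 4; 1 interval and its peaks are not reported here by name. Alternatives were other distances, windows, annotations, list sizes, matching limits, word lengths, and leaving out each replicate.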

Additional observations from a re-analysis of the deposited data

How the results depend on the processing

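Of 102 alternatives to 17 results, 77 kept their direction and their side of the threshold (which 3 replicates cannot pass) or, for values with no test, stayed within the spread, 19 moved and 6 turned direction. Sizes changed among the 77: with the element's centre within 50 bp, the element against flanks went from 28.9 to 11.6 points, against promoter peaks from 24.4 to 10.1, and outward minus inward from 35.5 to 10.02 per 100; with CAGTG alone the promoter difference was smaller still. Outward minus inward outside the set went from 24.9 to 3.22 in whole lists. The leading word against promoter peaks ranged from -3.01 to -12.9, and recovery against promoter peaks was -10.2 with 1873 regions and -0.485 at or under the median signal, the latter chosen after seeing the data, as were all alternatives for the element. The share of 8.59% became 10.5% with a TSS distance of 1000 bp, 5.36% with 5000 bp, 5.95% with all annotated genes, 8.09% with whole regions, 7.37% in the strongest 1873 peaks and 7.96% in a consensus of the replicate lists; without 1 replicate that consensus gave 7.93 to 8.38%. The 52.5% found in all 3 replicates became 38.2% within 50 bp, 89.8% with whole lists, 27.0% with 1873 regions, and 58.7 to 68.0% without 1 replicate, where only 2 must agree. Summits in non-coding genes rose to 20.5% within 500 bp of the gene, neighbours within 1000 bp and 10000 bp gave 9.94% and 58.7%, median GC of whole regions was 40%, and the nearest TSS alone gave 9 peaks by segmentation and homeotic genes. The recovery difference to promoter peaks turned to 0.807 with whole lists, and that to distal peaks inside coding genes to -1.04 with 1873 regions and -0.269 at 5000 bp. The leading word against flanks, 0.165 points (exact permutation p = 1), turned to -0.00124 within 25 bp and -0.00204 for a 6-base word. The element against distal peaks inside coding genes turned to -3.04 for CAGTG alone. The causes were not tested. Depth is unknown, so a peak missing from a list is not shown to be absent. No paired analysis was possible because there is 1 group, so no groups share replicate numbers; differences between places were taken within each replicate.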
